A study of Mus musculus with 16 samples.

Results

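Gonadal white adipose tissue (gWAT) from Adipo-Pgam1 KO mice was compared with gWAT from littermate controls on 1-colour Agilent arrays. The 4 arrays labelled KO and the 4 labelled WT in this tissue were taken by their titles, which gave 8 of the 16 arrays of the series. The other 8 arrays measured brown adipose tissue (BAT) of the same genotypes. The Adipo-Pgam1 KO mice were Adipoq-Cre+ : Pgam1 flox/flox and the littermate controls Adipoq-Cre- : Pgam1 flox/flox, so both groups carried floxed Pgam1 alleles and differed by Cre. The mice were male C57BL/6NCrSlc animals aged 16 weeks, except that replicate 4 of the KO group was 14 weeks old. The adiponectin promoter drives Cre in adipocytes, so other cells of the depot should keep Pgam1, and the sources used here do not name the floxed exons or say where either Pgam1 probe lies relative to them. The labels call the samples independent but do not name the animals, so p-values measure the spread between these samples. Because the tissue was measured whole, fewer cells of a type and less RNA per cell cannot be told apart.

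White adipocytes take up glucose and carry it through glycolysis to pyruvate, and much of that carbon leaves the mitochondria as citrate and is built into fatty acids that are stored as triglyceride. Phosphoglycerate mutase interconverts 3-phosphoglycerate and 2-phosphoglycerate, and so stands between the early steps that feed the pentose phosphate, serine and glycerol branches and the late steps that end in pyruvate. Gonadal fat lies against the epididymis and testis. Under cold or adrenergic drive, white depots can gain beige adipocytes, which burn fat and carry genes first known from brown fat.

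Levels are given throughout as normalized log2 intensity, that is log2 of the background-subtracted signal over the 75th percentile of the array, and changes as the arrays with the Adipo-Pgam1 KO label, called KO-labelled here, minus controls. A level can be compared between arrays but not between probes. A gene was tested if its brightest probe was well above background throughout at least 1 group, that is on all its 4 arrays. The 75th percentile was between 570.3 and 855.3 on the 8 arrays, and 49.99% to 62.2% of probes were well above background. Control replicates 1 to 3 lay on 1 slide, and control replicate 4 lay on another with all 4 KO-labelled arrays. Slide and group are therefore nearly confounded, and the slides were scanned on different days. All 10 adipocyte markers examined were well above background on all 8 arrays.

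Pgam1 itself was higher in the KO-labelled arrays. Its brighter probe, A_51_P342669, read 5.07, 5.15, 5.67 and 5.56 in control replicates 1 to 4 and 6.50, 6.42, 6.38 and 5.95 in KO-labelled replicates 1 to 4. The lowest KO-labelled array, the 14-week-old replicate 4, was above the highest control. The mean was 5.36 ± 0.29 (SD, n = 4) in controls and 6.31 ± 0.25 (SD, n = 4) in the KO-labelled arrays, a difference of 0.95 (limma, standard error 0.19, adjusted p = 0.0139), or 1.93-fold. The second probe, A_55_P2727354, read 3.66, 3.70, 4.23 and 4.13 in controls and 5.14, 5.02, 5.09 and 4.56 in the KO-labelled arrays, a change of 1.02. Neither probe showed any overlap between the groups (p = 0.0286 in a two-sided exact permutation test, the lowest value possible with 4 against 4 arrays). The call held with each of the 8 arrays left out. It was lost with the slide as a fixed block (0.75, adjusted p = 0.248) and without the 3 arrays richest in liver transcripts described next (0.79, adjusted p = 0.269). Since the gene that the design targets was not lower, every direction below rests on the label of the arrays.

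In BAT, the same probe ranged from 7.82 to 8.07 in controls and from 6.03 to 6.43 in the KO arrays, a log2 change of -1.74. The difference between the changes of the tissues was 2.69 (interaction in limma over all 16 arrays, standard error 0.22, adjusted p = 2.59e-06), in a comparison in which 48.3% of all genes tested passed. That fit treated all 16 arrays as independent and did not include the slide. In BAT too, control replicates 1 to 3 lay on 1 slide, and control replicate 4 on another with the KO arrays. Slide and group are thus nearly confounded in both tissues. Whether both tissues came from the same mice is not stated, and KO replicate 4 was 14 weeks old in each tissue.

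Liver transcripts varied strongly between the gWAT arrays, within both groups. Albumin (Alb) read 5.26, 7.86, 3.67 and 3.43 in control replicates 1 to 4 and 0.89, 6.28, 5.98 and 4.08 in the KO-labelled arrays. The vitamin D-binding protein Gc read 2.80, 6.13, -0.52 and -2.47 in controls and -6.62, 4.29, 3.68 and 1.48 in the KO-labelled arrays. Serpina1a, the plasma protease inhibitor alpha-1 antitrypsin, read 5.98, 8.93, 3.17 and 1.80 against 1.06, 7.21, 6.62 and 4.54. Control replicate 2 was the highest array and KO-labelled replicate 1 the lowest for each of these genes, and the groups overlapped. The 25 liver markers examined all had a probe, and 25, 25, 22 and 21 of them were well above background in control replicates 1 to 4 and 13, 25, 25 and 24 in the KO-labelled arrays. Their summed level ranged from 10.2 to 11.7 in controls and from 9.40 to 10.68 in the KO-labelled arrays. On most arrays that sum is carried largely by Cyp2e1, Rbp4 and transferrin (Trf), which were high on all 8 arrays and varied less than albumin. In control replicate 2, where the sum was highest, Serpina1a (8.93) and Serpina1c (8.87) were about as bright as Cyp2e1 (9.06).

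The median level of the 25 markers showed the spread better, with 2.23, 5.59, -0.26 and -2.06 in controls and -3.43, 4.12, 3.36 and 1.48 in the KO-labelled arrays. Control replicate 2 and KO-labelled replicates 2 and 3 were therefore the richest in liver transcripts. Of the 21 liver markers tested, Rbp4 alone passed the threshold, and it was lower in the KO-labelled arrays. Slc27a2, a fatty acid transporter that belongs to the thermogenic list used here, followed the liver pattern, with 1.51, 3.97, -2.75 and -4.45 in controls and -3.90, 2.34, 1.88 and -0.09 in the KO-labelled arrays.

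Transcripts of the male tract also differed between arrays. Gpx5, a secreted epididymal glutathione peroxidase, read 1.28, -6.46, -6.49 and -2.85 in controls and -0.11, -6.28, 0.19 and -1.50 in the KO-labelled arrays. The sperm protamine Prm1 read 2.68 in control replicate 1 and -2.14 or less on the 7 other arrays. Of 20 epididymis markers, 12, 2, 3 and 7 were well above background in controls and 7, 3, 10 and 7 in the KO-labelled arrays. Gpx5 and Prm1 overlapped between the groups. The summed level of the testis list did not, at 4.41, 2.98, 3.43 and 2.97 in controls and 2.47, 2.68, 2.42 and 2.33 in the KO-labelled arrays. The median over its 8 markers well above background on at least 4 arrays did overlap. It was 0.52, -1.98, -2.63 and -2.20 in controls and -2.78, -2.45, -2.77 and -2.86 in the KO-labelled arrays. Of 7 testis markers tested, Cyp17a1, a steroid hydroxylase, fell, by 0.95, with each array left out, and Tnp2, a spermatid protein, read -3.82 to -2.50 in controls and -4.83 to -3.88 in the KO-labelled arrays (change -0.77, adjusted p = 0.135). What part testis RNA has in other differences was not tested.

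**Figure D1:**
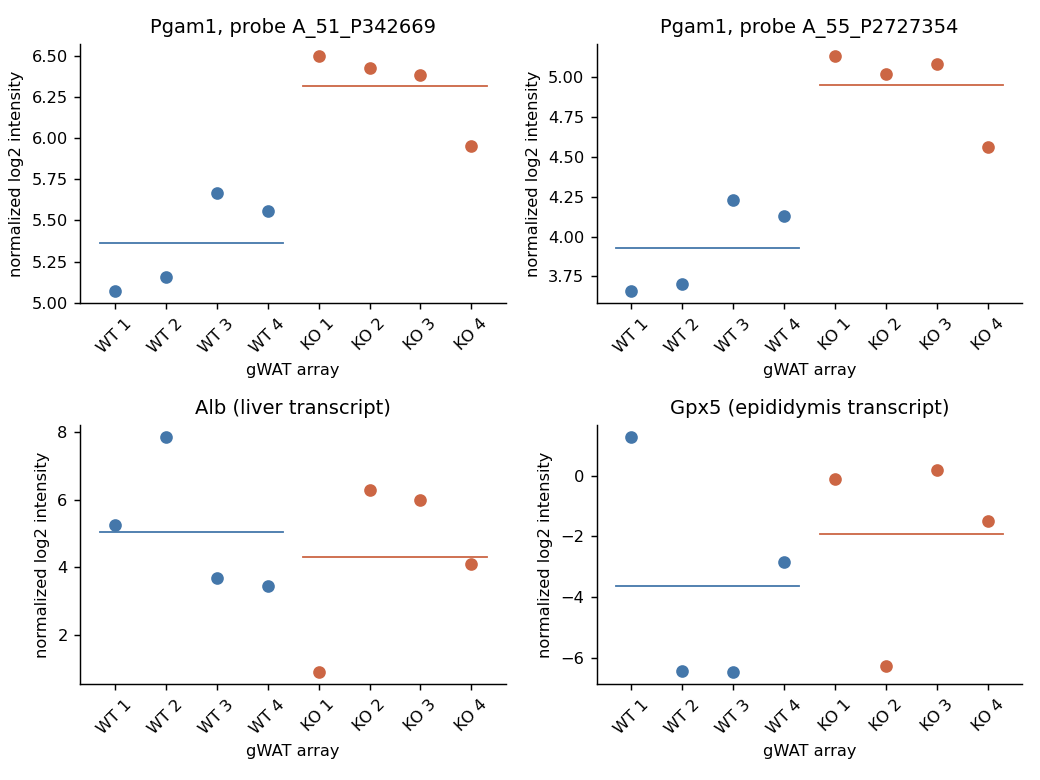
Normalized log2 intensity (vertical axes) of Pgam1 by each of its probes, of the liver transcript Alb and of the epididymis transcript Gpx5 in each of the 8 gWAT arrays (horizontal axes); points are arrays and lines are group means. Both Pgam1 probes are higher in every KO-labelled array than in every control, whereas Alb ranges from 0.89 to 7.86 and overlaps between the groups.

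Across all genes, 2525 of 14147 passed an adjusted p of 0.05 in limma, or 17.8% of those tested. Of these, 1413 were higher (9.99%) and 1112 lower (7.86%) in the KO-labelled arrays. The groups did not overlap for 24.2% of genes, with 13.3% higher and 10.9% lower. The median change over all genes was 0.048, and 54.3% were higher. With the level of liver transcripts as a covariate, 2250 genes passed, of which 2160 were among the 2525. Without the 3 arrays richest in liver transcripts, which leaves 3 controls and 2 KO-labelled arrays, 86 passed and 2523 of the 2525 kept their direction. The 2525 were called on data that include the arrays kept. Kept directions in this fit and the next are therefore no independent check. With the slide as a fixed block, 184 passed and all 2525 kept their direction, but that fit rests on 1 control array. Leaving out single arrays gave between 1079 and 3212 genes, with 1079 without replicate 1, 1290 without replicate 2 and 1144 without KO-labelled replicate 3, 1192 without control replicate 2 and 1584 without control replicate 3. In what follows a list is given with its count and median in the full comparison. Where it matters, its count over the 8 fits that left out 1 array each is added. Unless a gene is said to have kept its call with the slide block or without the liver-rich arrays, the call should not be taken to hold there.

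Of the genes so tested, the largest rise was that of Cox6a2, the muscle and heart isoform of a cytochrome c oxidase subunit. It read -2.27, -1.50, -2.95 and -2.09 in controls and 4.40, 3.99, 4.36 and 3.40 in the KO-labelled arrays, a change of 6.24 (standard error 0.33, adjusted p = 1.36e-04). The groups lay far apart, and Cox6a2 was called under every alternative tried, also with the slide as a fixed block (6.12) and without the 3 liver-rich arrays (6.33). The fructose transporter Slc2a5 read -0.81, -2.11, -1.57 and -1.93 in controls and 2.99, 3.10, 3.16 and 2.63 in the KO-labelled arrays, and rose by 4.58 (standard error 0.27, adjusted p = 2.14e-04). Mreg, or melanoregulin, a protein of melanosome and lysosome transport, read -4.20 to -2.19 in controls and 0.51 to 1.89 in the KO-labelled arrays. These genes are among the 15 largest rises, taken only where the groups did not overlap, so their separation is no further result.

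The insulin-sensitive glucose transporter Slc2a4 did not pass, with a change of 0.24 (adjusted p = 0.561), and Slc2a1 changed by -0.14 (adjusted p = 0.455). In contrast, Slc2a12, another glucose transporter, read 0.05, -0.62, 0.39 and -0.14 in controls and -3.85, -3.15, -3.30 and -3.05 in the KO-labelled arrays. It fell by 3.26 (standard error 0.25, limma), and the fall was called with the slide as a fixed block and without the 3 liver-rich arrays. Slc2a3 also fell, from between 1.26 and 2.45 in controls to between -0.46 and 0.18 in the KO-labelled arrays, a change of -1.95 (standard error 0.29, adjusted p = 0.00509). The sugar transporters measured thus moved in both directions.

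Pgam1 belongs to a family of enzymes that handle phosphoglycerates and fructose bisphosphates. Of 10 members tested, Pgam1 included, 2 rose and 2 fell. Tigar, a fructose bisphosphatase of the p53 response, rose by 1.09 (standard error 0.27, adjusted p = 0.0279), though it passed in only 3 of the 8 fits that left out 1 array. Pfkfb1 and Pfkfb2, bifunctional enzymes that set the level of the glycolytic activator fructose 2,6-bisphosphate, fell by 0.998 and 0.55. Pfkfb1 read 3.82 to 4.25 in controls and 2.74 to 3.44 in the KO-labelled arrays. Pgam2, the muscle mutase, changed by -0.40 (adjusted p = 0.683), Bpgm by 0.04 (adjusted p = 0.917) and Pfkfb3 by -0.84 (adjusted p = 0.125).

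Beside Pgam1, 20 glycolytic enzymes were tested, and all 20 were higher in the KO-labelled arrays, with a median change of 0.94. Of these 10 rose and none fell, and the groups did not overlap for 11. Between 7 and 11 rose when 1 array was left out, and none did without the 3 liver-rich arrays, where the median was 0.74. Pkm, which makes pyruvate in the last step, read 5.05, 4.64, 5.68 and 5.57 in controls and 7.77, 7.43, 7.52 and 6.98 in the KO-labelled arrays. Eno1, the enolase that acts just after phosphoglycerate mutase, rose by 1.35 (standard error 0.23, adjusted p = 0.00835), and Pgk1, which acts just before it, by 1.27 (standard error 0.23, adjusted p = 0.0105). Transcripts on both sides of the Pgam1 step were therefore higher. Isoforms of one step differed in size: Pfkl and Pfkp rose by 1.89 and 1.40, while Pfkm changed by 0.37 (adjusted p = 0.168). Ldhb rose by 0.97 but passed in only 4 of the 8 fits with an array left out.

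Enzymes around glycolysis moved with it in part. In the pentose phosphate pathway, which makes NADPH for fatty acid synthesis, 5 of 9 enzymes rose, with a median of 0.92, but 2 without KO-labelled replicate 1 or 3 and 3 without KO-labelled or control replicate 2. Pgd and Tkt rose by 1.70 and 1.51. Of 19 genes of glucose entry and glycogen, 5 rose and 3 fell. The glycogen enzymes Gbe1 (1.78), Ugp2 (1.75), Pygl (1.499), the phosphorylase, and Gyg (1.38) were among those that rose, and each was called with every single array left out. Gbe1, the branching enzyme, read 4.08 to 4.80 in controls and 5.52 to 6.95 in the KO-labelled arrays.

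Of 32 genes of pyruvate entry and the TCA cycle, 18 rose and none fell, with a median of 0.76. The mitochondrial pyruvate carrier Mpc1 read 6.47, 6.63, 7.36 and 6.95 in controls and 8.32, 8.26, 8.15 and 7.89 in the KO-labelled arrays, without overlap. Pdhb, a subunit of pyruvate dehydrogenase, rose by 1.89 (standard error 0.24, adjusted p = 0.00296). Pdk4, a kinase that switches this complex off, rose as well, from 1.24, 2.91, 2.54 and 3.66 to 5.30, 4.62, 4.44 and 4.37. Its change of 2.09 (standard error 0.46, adjusted p = 0.0198) was the largest of the list, and its call was lost without KO-labelled replicate 1. The count of 18 was 10 without control replicate 2 and 10 without KO-labelled replicate 2, 9 without KO-labelled replicate 3 and 7 without replicate 1. None passed without the 3 liver-rich arrays, where the median was 0.61.

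**Figure D2:**
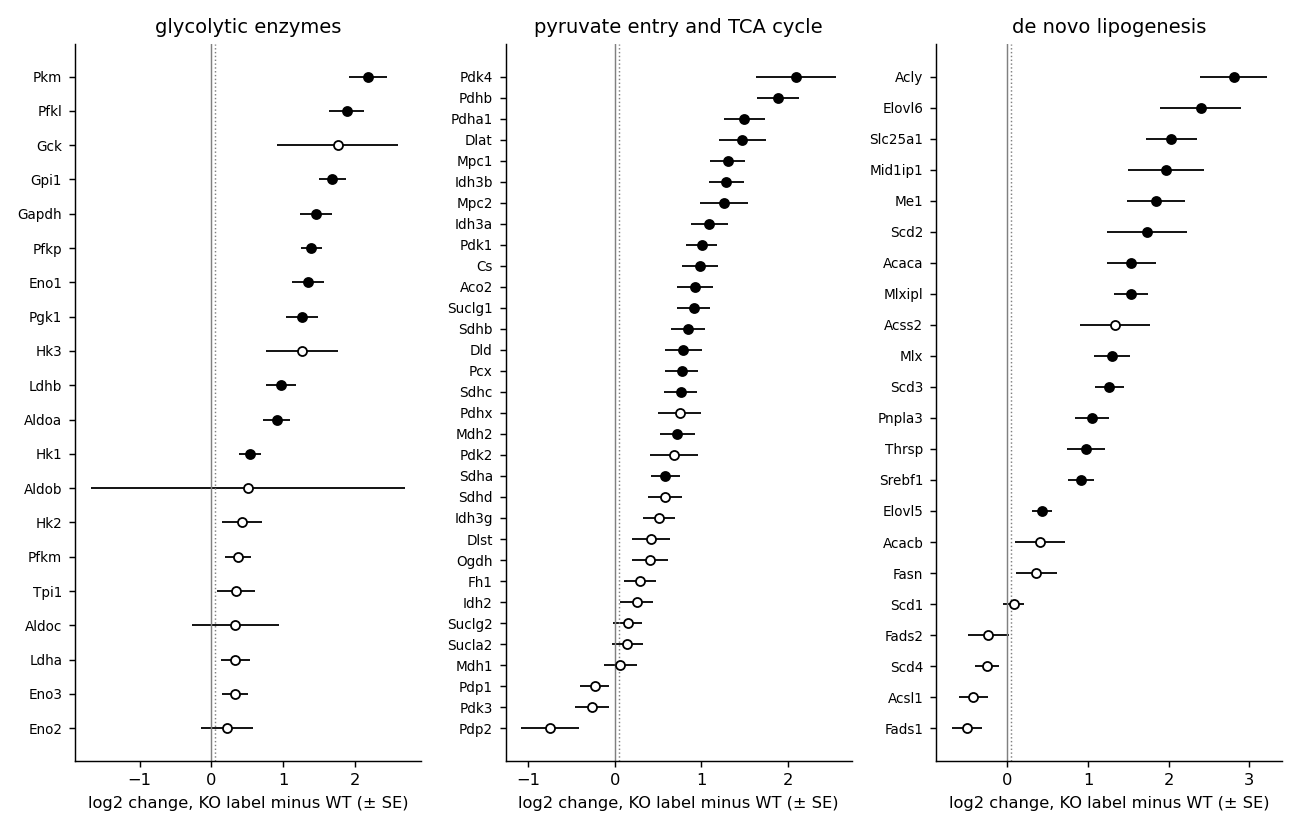
Log2 change (horizontal axes, KO-labelled arrays minus controls, with standard errors) of every tested glycolytic enzyme, gene of pyruvate entry and the TCA cycle, and gene of de novo lipogenesis; filled points passed an adjusted p of 0.05, the solid line is 0 and the dotted line is the median of all genes. All 20 glycolytic enzymes lie above 0, with Pkm highest, whereas Fasn and Scd1 lie near 0 in the lipogenic list.

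Mitochondrial genes were higher as a group by smaller amounts. Of 36 complex I subunits, 35 were higher and 14 rose, with a median of 0.60, and of 39 genes of complexes III to V and cytochrome c, 16 rose, with a median of 0.54. Ndufa11 and Cyc1 rose by 1.18 and 1.27 with every array left out in turn. Among 78 mitochondrial ribosomal proteins, 15 rose (median 0.44), as did 9 of 30 import and chaperone genes (median 0.51), led by the chaperone Hspa9 (1.43) and the protease Lonp1 (1.23). No gene of these 4 lists fell. The counts rested on single arrays: complex I subunits that rose numbered 23 without KO-labelled replicate 4, 1 without replicate 1, replicate 2 or replicate 3, 2 without control replicate 2 and 5 without control replicate 1 or 3. For complexes III to V the count was 27 without KO-labelled replicate 4 and 7 without any of control replicates 1 and 2 or the other replicates of that label. For mitochondrial ribosomal proteins it was 43 and for import genes 21 without replicate 4, against 1 and 2 without replicate 1, 2 or 3. Without control replicates 1, 2 and 3 in turn these were 5, 1 and 5, and 4, 3 and 4. The complex I count was 5 when arrays were centred on their medians and 35 when they were scaled by spike-ins.

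Of 15 regulators of mitochondrial biogenesis tested, 7 were higher and 8 lower, with none past the threshold in limma (2 at an unadjusted p under 0.05). The median of -0.05 turned to 0.067 with median centring, 0.39 with spike-in scaling, 0.14 with the slide as a fixed block and 0.10 without the 3 liver-rich arrays. Ppargc1a, the coactivator at the head of the programme, read 0.06, -0.12, -1.002 and -1.22 in controls and -0.63, -0.59, -1.25 and -1.88 in the KO-labelled arrays, with overlap and a change of -0.52 (adjusted p = 0.365). Tfam, the mitochondrial DNA packaging factor, changed by 0.22 (adjusted p = 0.381). Of 58 cytosolic ribosomal proteins, 57 were higher and 5 rose, with a median of 0.28. The 5 that rose became 19 without KO-labelled replicate 4, 11 without control replicate 4 and 1 or 2 without any other array.

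Thermogenic genes divided by kind. Of 26 tested members of the thermogenic and beige list, 12 rose and 2 fell (median 0.63, 10 to 13 rising with 1 array left out), and without control replicate 2 only 1 fell. Without the 3 liver-rich arrays, 2 of 27 rose and the median was 0.31, and with the slide as a fixed block 5 rose and none fell, with a median of 1.40. Cidea, a lipid droplet protein of brown adipocytes, read 2.19, 3.20, 3.05 and 2.95 in controls and 6.99, 6.32, 6.21 and 5.51 in the KO-labelled arrays, a change of 3.41 (standard error 0.33, adjusted p = 0.00126). Cpt1b, the muscle and brown fat form of the enzyme that admits fatty acids to mitochondria, read -1.86, -2.70, -2.17 and -2.69 against 2.83, 1.86, 1.98 and 0.84. Both genes are among the 15 largest rises, which were taken only where the groups did not overlap. The potassium channel Kcnk3 rose by 3.10 and the thioesterase Acot11 by 3.48. Otop1, a proton channel, rose by 4.24 on its brightest probe but changed by 0.42 on its other probe. Cidea was called without the liver-rich arrays, whereas Cpt1b (4.08, adjusted p = 0.0503), Kcnk3, Acot11 and Otop1 were not.

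Ucp1, the uncoupling protein of brown fat, was well above background on none of the 4 controls and on 3 of the 4 KO-labelled arrays, so it was not tested. It read -5.12, -6.13, -6.34 and -4.95 in controls and -0.15, -1.53, -1.09 and -3.54 in the KO-labelled arrays. Each KO-labelled array was thus above each control, and the lowest, replicate 4, was at background. Elovl3, an elongase induced by cold in brown fat, rose by 4.35, but with a standard error of 0.996 and in 5 of the 8 fits that left out 1 array.

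Transcription factors that mark the brown and beige lineages did not rise with these effectors. Prdm16 read -1.81, -1.96, -1.98 and -2.16 in controls and -2.18, -1.86, -2.09 and -1.35 in the KO-labelled arrays, with overlap (change 0.11, adjusted p = 0.732). Ebf2, a determinant of brown adipocyte identity, fell by 1.09 (standard error 0.22, adjusted p = 0.0144), and Zic1, a marker of classical brown fat, was at background on all 8 arrays. Of 12 brown adipocyte markers tested, many of them also in the thermogenic list, 8 rose and none fell, with a median of 2.64. Adrb3, the adipocyte beta-adrenergic receptor, fell by 1.22 (standard error 0.26, adjusted p = 0.0181).

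Isoforms of cytochrome c oxidase subunits were also compared. Those known from muscle and brown fat rose, with Cox7a1 at 1.88 to 3.46 in controls and 4.13 to 5.35 in the KO-labelled arrays and Cox8b at 3.90 to 5.39 and 5.96 to 7.28. Of their widely expressed counterparts, Cox7a2 rose by 0.80 (adjusted p = 0.0277), while Cox6a1 changed by 0.19 (adjusted p = 0.405) and Cox8a by 0.10 (adjusted p = 0.715). The calls of Cox7a1 and Cox8b were lost with the slide as a fixed block and without the 3 liver-rich arrays. Skeletal muscle markers were given beside the oxidase genes because some isoforms are shared. Of 16 examined, Ckm was at background on all 8 arrays, and Des alone passed (1.52), but the summed level of the list was 3.16 to 4.95 in controls and 5.18 to 6.02 in the KO-labelled arrays. That sum was carried by the sarcomeric actin Acta1, which read 1.33, 2.82, 4.40 and 4.56 in controls and 5.79, 5.41, 5.85 and 4.88 in the KO-labelled arrays (change 2.20, adjusted p = 0.0503). Its part in the rise of the isoforms was not tested.

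**Figure D3:**
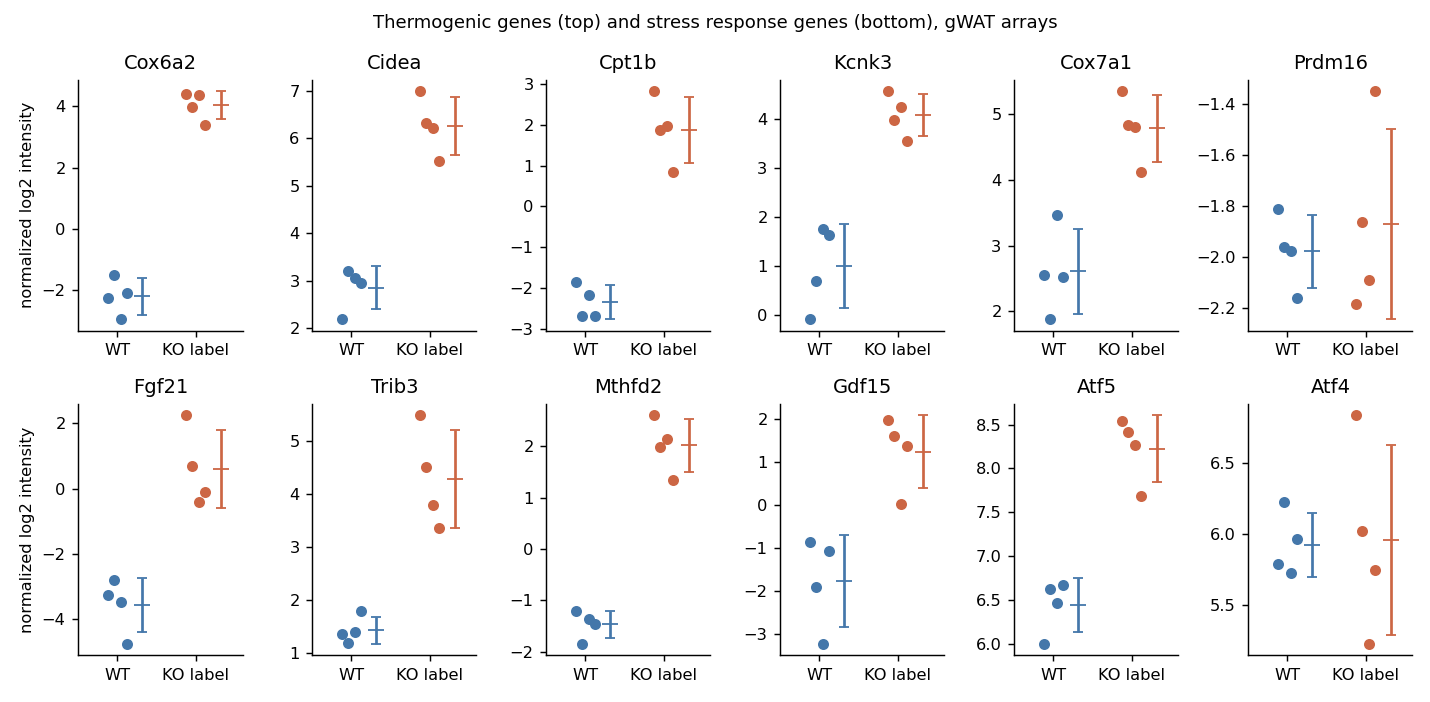
Normalized log2 intensity (vertical axes) of 6 thermogenic genes (top) and 6 stress response genes (bottom) in the 4 controls and the 4 KO-labelled arrays; points are arrays and bars are the mean ± SD. The groups are separate for every gene drawn but Prdm16 and Atf4, in which they overlap.

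The list of de novo lipogenesis had a median of 1.16. Of 22 genes, 14 rose and none fell, and 10 to 14 rose with 1 array left out, but none without the 3 liver-rich arrays (median 1.07). Acly, which cleaves exported citrate into acetyl-CoA, read 5.51, 4.98, 6.999 and 6.50 in controls and 9.07, 8.95, 8.79 and 8.40 in the KO-labelled arrays, a change of 2.80 (standard error 0.41, adjusted p = 0.00509). The citrate carrier Slc25a1 rose by 2.03, malic enzyme Me1 by 1.84 and acetyl-CoA carboxylase Acaca by 1.54. The steps after malonyl-CoA were not uniform. Fatty acid synthase (Fasn) read 9.26, 8.70, 9.87 and 9.82 in controls and 9.83, 9.95, 9.69 and 9.61 in the KO-labelled arrays and did not pass (change 0.36, adjusted p = 0.352), nor did Scd1 (0.08, adjusted p = 0.711), whereas the elongase Elovl6 rose by 2.40. Mlxipl, the carbohydrate response factor ChREBP, rose by 1.53 (standard error 0.21, adjusted p = 0.00385) on its brightest probe, but changed by 0.41 (adjusted p = 0.136) as the mean over its probes. Srebf1, the sterol and fatty acid factor, rose by 0.91.

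Of 25 genes of lipolysis and droplet proteins, 3 rose and 6 fell, with a median of -0.11. The falls numbered 2 without control replicate 2 and 3 without KO-labelled replicate 1 or 3. The 3 that rose were Cidea and the coat proteins Plin2 and Plin5. Plin2 read 5.18, 5.46, 5.45 and 5.47 in controls and 8.54, 8.02, 8.03 and 7.72 in the KO-labelled arrays, a change of 2.69 (standard error 0.18, adjusted p = 4.63e-04). The spread within either group was small beside the difference, and both settings that ended most calls left this one. Plin5, which ties droplets to mitochondria in oxidative cells, rose by 2.05, whereas Plin1, the main coat of white adipocyte droplets, changed by 0.35 (adjusted p = 0.277) and Plin4 by -0.49 (adjusted p = 0.0927). The lipases Pnpla2 and Lipe changed by -0.17 and -0.03, neither past the threshold. Ces1f, a carboxylesterase, read 4.19, 5.64, 4.50 and 5.31 in controls and 2.77, 2.80, 2.17 and 1.51 in the KO-labelled arrays. The lipid-sensing receptor Ffar4 fell by 1.24 (standard error 0.20, adjusted p = 0.00644).

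The monoacylglycerol acyltransferases Mogat2 and Mogat1 moved in opposite directions. Neither call held without the 3 liver-rich arrays, and that of Mogat2 was also lost with the slide as a fixed block. Mogat2 read 0.69, 0.17, 3.502 and 2.19 in controls and 6.36, 5.82, 5.75 and 5.23 in the KO-labelled arrays and rose by 4.15 (standard error 0.66, adjusted p = 0.00671), while Mogat1 fell by 1.095 (standard error 0.17, adjusted p = 0.00587). Of 31 fatty acid oxidation genes, 9 rose and none fell, with a median of 0.42, but only 3 to 5 rose when any array other than KO-labelled replicate 4 was left out. Cpt1b, Hadha (1.82) and Hadhb (1.37), of which the last 2 form the mitochondrial trifunctional protein, were called with each array left out. The fatty acid binding proteins Fabp3 and Fabp5 rose by 2.81 and 1.66, and Fabp4, that of mature adipocytes, changed by -0.10 (adjusted p = 0.683).

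Some products secreted by white adipocytes were lower. None of 23 genes of adipocyte identity and adipokines rose, and 4 fell (median -0.23). Under spike-in scaling 4 rose and 3 fell, with a median of 0.21, so the direction of this list depends on the scaling. Retinol binding protein 4 (Rbp4) read 7.54, 8.10, 8.65 and 8.31 in controls and 5.75, 6.46, 6.15 and 5.50 in the KO-labelled arrays, a change of -2.18 (standard error 0.28, adjusted p = 0.00300). Rbp4 is also made by liver. Within the KO-labelled arrays it was highest in replicates 2 and 3, as albumin was. Within controls it was highest in replicate 3, and albumin in replicate 2. What part liver RNA has in its fall was not tested. Angiotensinogen (Agt) read 5.75, 6.21, 5.40 and 6.32 in controls against 4.07, 4.08, 3.97 and 3.16, and the groups lay apart. Resistin (Retn) fell by 0.95 and adiponectin (Adipoq) by 0.89, the latter in only 4 of the 8 fits that left out 1 array. Leptin (Lep) changed by -0.83 (adjusted p = 0.0563), and the adipocyte factors Pparg and Cebpa by 0.07 and -0.30, neither past the threshold.

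Insulin and growth factor signalling had a median of -0.33, with 9 of 32 genes falling and 1 rising. The insulin receptor substrates Irs1 and Irs2 fell by 0.84 and 0.81, and Pik3ca, a catalytic subunit of phosphoinositide 3-kinase, from 1.51, 1.25, 1.31 and 0.99 in controls to 0.06, 0.39, 0.04 and 0.27 in the KO-labelled arrays. Akt1 rose by 0.57 (standard error 0.11, adjusted p = 0.0143). Without KO-labelled replicate 1, 4 of the genes fell. Under spike-in scaling, which moved the median of all genes to 0.49, the median of this list was 0.11 and 1 gene fell, so the direction of the list depends on that shift.

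Genes of the integrated stress response, in which the factor Atf4 drives amino acid and one-carbon genes when translation is checked, rose in part. Of 24 tested, 10 rose and none fell, with a median of 0.72, and 8 to 11 rose when 1 array was left out. Without the 3 liver-rich arrays 2 rose (median 0.70), and with the slide as a fixed block 4 rose (median 0.31). Fgf21, a secreted metabolic hormone, read -3.24, -2.79, -3.45 and -4.74 in controls and 2.24, 0.68, -0.42 and -0.12 in the KO-labelled arrays, a change of 4.15 (standard error 0.61, adjusted p = 0.00509). The pseudokinase Trib3 read 1.35, 1.19, 1.40 and 1.79 in controls and 5.47, 4.50, 3.78 and 3.36 in the KO-labelled arrays, and rose by 2.85 (standard error 0.41, adjusted p = 0.00475). Mthfd2, a mitochondrial folate enzyme, read -1.21, -1.84, -1.35 and -1.46 against 2.60, 1.99, 2.15 and 1.35. In all 3 genes KO-labelled replicate 1 was the highest array. Without the liver-rich arrays Mthfd2 was called, but Fgf21 (4.87, adjusted p = 0.0571), Trib3 (2.91, adjusted p = 0.101) and Gdf15, described next, were not.

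Aldh1l2, another mitochondrial folate enzyme, was well above background on all 4 KO-labelled arrays and on none of the controls, and was at least 4.11-fold higher. The hormone Gdf15 rose by 3.01 (standard error 0.57, adjusted p = 0.0122), the factors Atf5 and Ddit3 by 1.79 and 1.64, and the proline synthesis enzyme Aldh18a1 by 1.68. In contrast, the Atf4 transcript itself changed by 0.03 (adjusted p = 0.952), with the groups overlapping. The enzymes that open serine synthesis from 3-phosphoglycerate, the substrate of Pgam1 on the glycolytic side, did not pass, with changes of 0.09 for Phgdh (adjusted p = 0.867) and 0.40 for Psat1 (adjusted p = 0.219). The third, Psph, rose by 0.99 (adjusted p = 0.0295) but in only 2 of the 8 fits that left out 1 array. Asns changed by 0.30 (adjusted p = 0.403) and Chac1 by 0.88 (adjusted p = 0.170).

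Because these stress genes did not move together, their promoters were searched for TGATGNAA, the core of the composite element bound by C/EBP and ATF factors. Windows from RefSeq (build GRCm38.p6) ran from 250 bases before to 50 bases after each start, and both strands were read. The letters were in 1096 of 27025 promoters, or 4.06%, and in 8 of the 24 stress genes with an entry, or 33.3%. The list was chosen as genes of this response, so its share was not weighed against that of all promoters. Of the 8 with the letters, Fgf21 and Trib3 rose, while Asns, Atf3, Chac1 and Nupr1 did not pass and Pycr1 and Slc7a11 were not tested. The E-box CACGTG was in 7.24% of all promoters and in those of Fgf21, Nupr1 and Aldh18a1. The windows of the 2 genes that rose and of Nupr1, which changed by 0.17 (adjusted p = 0.564), are printed 5′ to 3′ on the strand of the gene, each from the minus strand, with the matched letters in capitals.
Fgf21 chr7:45615441-45615740: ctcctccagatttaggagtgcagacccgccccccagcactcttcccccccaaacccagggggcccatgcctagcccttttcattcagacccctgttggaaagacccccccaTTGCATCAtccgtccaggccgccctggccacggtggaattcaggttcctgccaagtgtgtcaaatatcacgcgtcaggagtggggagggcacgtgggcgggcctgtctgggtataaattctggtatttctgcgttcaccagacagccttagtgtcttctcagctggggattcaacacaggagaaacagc
Trib3 chr2:152344011-152344310: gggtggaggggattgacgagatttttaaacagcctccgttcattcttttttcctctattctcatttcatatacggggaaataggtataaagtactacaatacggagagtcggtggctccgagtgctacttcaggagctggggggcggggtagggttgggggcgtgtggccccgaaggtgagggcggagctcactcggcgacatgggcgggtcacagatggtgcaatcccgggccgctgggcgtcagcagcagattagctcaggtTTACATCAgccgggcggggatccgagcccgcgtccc
Nupr1 chr7:126625421-126625720: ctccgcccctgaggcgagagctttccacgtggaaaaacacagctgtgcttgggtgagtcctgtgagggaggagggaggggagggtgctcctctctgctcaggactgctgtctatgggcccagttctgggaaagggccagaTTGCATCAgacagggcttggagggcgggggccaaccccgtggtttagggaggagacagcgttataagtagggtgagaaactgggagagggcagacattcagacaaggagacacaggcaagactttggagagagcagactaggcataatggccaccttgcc
Each of the 3 carries the element in reverse, at -139 to -132 in Fgf21, at -110 to -103 in Nupr1 and, after the start site, at 14 to 21 in Trib3. Fgf21 and Nupr1 hold the same 8 letters, TTGCATCA, but changed by 4.15 and 0.17. Mthfd2, Gdf15, Ddit3, Atf5, Psph, Shmt2 and Aldh18a1 rose without these letters in their windows.

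Other stress programmes moved little as lists. Of 24 genes of the unfolded protein response of the endoplasmic reticulum, 3 rose, with a median of 0.045 and 1 rising without any array other than control replicate 4 or KO-labelled replicate 4. One of them, Derl3, rose by 2.28 (standard error 0.27, adjusted p = 0.00265), while the chaperone Hspa5 changed by 0.34 (adjusted p = 0.137). Among 24 Nrf2 targets and antioxidant genes, 7 rose (4 without control replicate 2 or KO-labelled replicate 2 or 3) and 2 fell (0 or 1 in all but 1 of the fits that left out an array), with Srxn1 at 2.81 to 3.02 in controls and 4.15 to 5.84 in the KO-labelled arrays. The cell cycle inhibitor Cdkn1a read -0.60, 0.13, 0.68 and 0.56 in controls and 2.66, 2.10, 2.47 and 2.61 in the KO-labelled arrays (change 2.27, adjusted p = 0.00290), whereas 4 of 21 genes of its list rose in all, and 1 or 2 with any array other than KO-labelled replicate 4 left out. Egln3, an oxygen-sensing hydroxylase, rose by 2.12. Cdkn1a and Egln3 lost their calls with the slide as a fixed block and without the 3 liver-rich arrays. Of 20 immediate early genes, none passed the threshold in limma (2 at an unadjusted p under 0.05).

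Of 19 amino acid transporters tested, 10 were lower and 9 higher, with a median of -0.04. Past the threshold 4 fell and 1 rose, where 7.86% of all genes fell and 9.99% rose. Slc7a10, a neutral amino acid transporter of adipocytes, read 5.25, 5.11, 5.68 and 5.92 in controls and 3.79, 4.12, 3.91 and 4.14 in the KO-labelled arrays. The glutamate transporter Slc1a3 fell by 2.004 (standard error 0.36, adjusted p = 0.00985), and both falls were called with every array left out in turn. Among 25 serine and one-carbon enzymes, 6 rose and 3 fell, but 2 or 3 rose without any array other than KO-labelled replicate 4 and 0 or 1 fell without any array other than control replicate 1. The fall of the transsulfuration enzyme Cbs, a change of -2.50 (adjusted p = 0.0408), was called in 1 of the 8 fits with an array left out, and in controls it was highest in replicate 2, the array richest in liver transcripts.

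**Figure D4:**
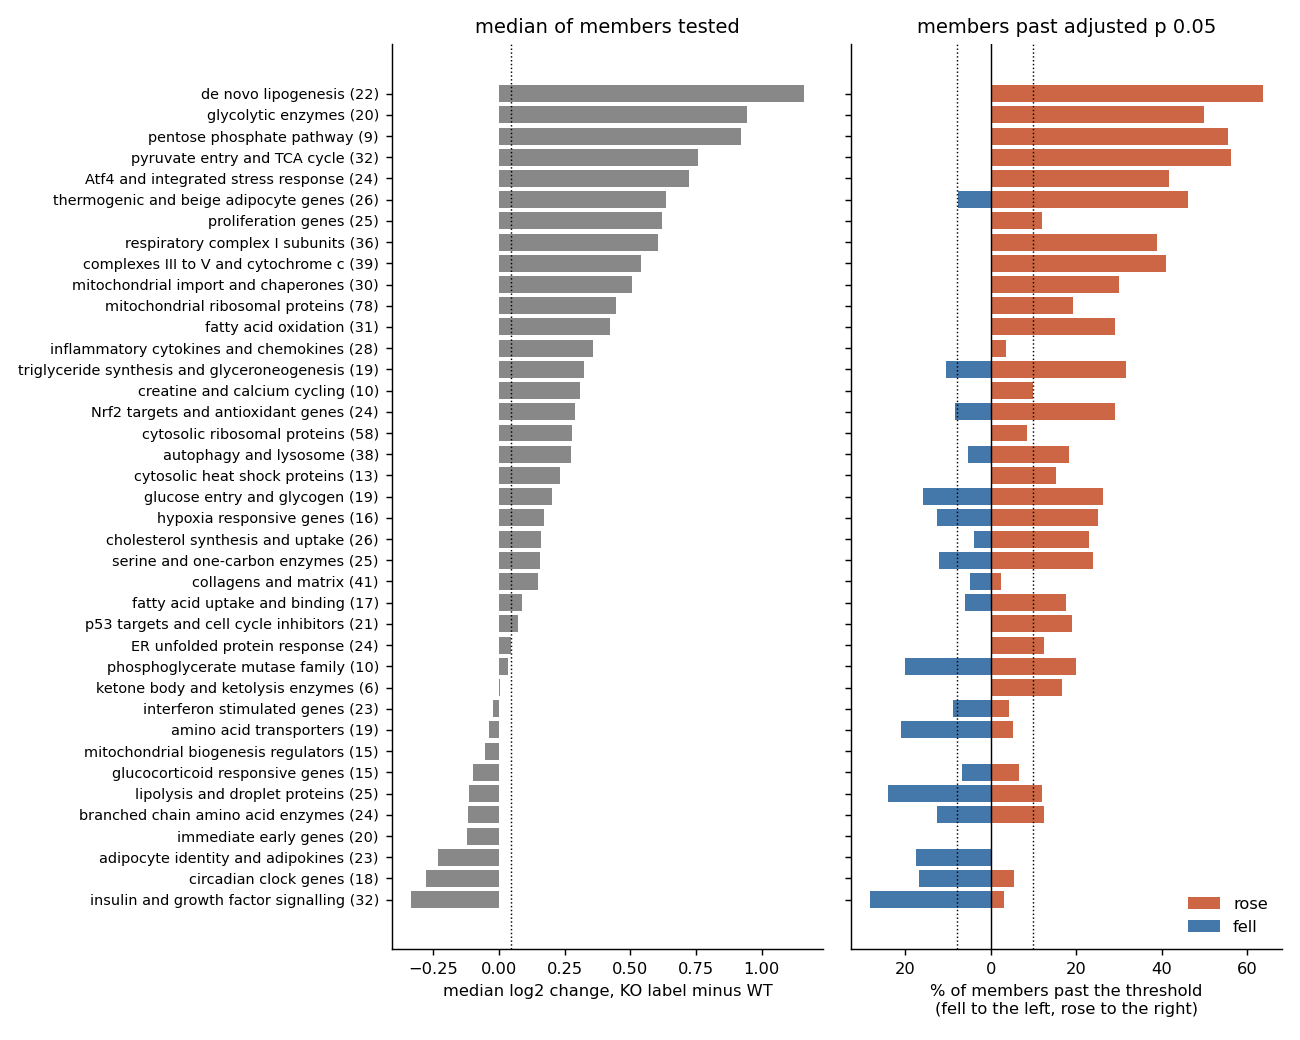
For each of 39 gene lists (number of tested members in brackets), the median log2 change of KO-labelled arrays minus controls (left) and the percentage of members that rose (right of 0) or fell (left of 0) at an adjusted p of 0.05 (right); dotted lines are the median of all genes and the shares of all genes that rose and fell. De novo lipogenesis has a median of 1.16 and glycolytic enzymes 0.94, on the high side, and insulin and growth factor signalling has -0.33, on the low side.

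Markers of lipid-associated macrophages, the cells that gather around dying adipocytes and digest lipid, were higher. Of 12 tested, 6 rose (3 without control replicate 2 or KO-labelled replicate 3, none without the 3 liver-rich arrays), with a median of 1.56. Gpnmb, a lysosomal membrane glycoprotein, read 0.23, -0.64, -1.57 and -0.10 in controls and 1.70, 1.92, 2.25 and 4.67 in the KO-labelled arrays. Trem2, the lipid receptor of these cells, read 2.07, 1.43, 1.79 and 2.11 against 2.60, 3.05, 3.39 and 5.23, and was called in 2 of the 8 fits with an array left out. The 14-week-old replicate 4 was by far the highest array for both. The same array had the lowest level among the KO-labelled arrays for Pgam1, Cidea, Cpt1b and Acly, and whether its age plays a part was not tested.

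General macrophage markers did not follow as a list, with 1 of 16 past the threshold and a median of 0.15. That gene was Cd68, with a change of 1.48 (adjusted p = 0.0365), called in 2 of 8 such fits. Adgre1, a pan-macrophage marker, read 2.41, 1.89, 2.35 and 2.51 in controls and 1.999, 2.74, 3.16 and 4.17 in the KO-labelled arrays (change 0.73, adjusted p = 0.236). Of 28 inflammatory cytokine and chemokine genes 1 rose, Il1rn, the interleukin-1 receptor antagonist, called in 3 of 8 such fits. No marker of progenitor, endothelial or mesothelial cells passed the threshold in limma, of 13, 10 and 10 tested (1, 0 and 0 at an unadjusted p under 0.05). Of 41 collagen and matrix genes, 1 rose (Tgfb1, by 1.05) and 2 fell, fewer in share than among all genes. Of 8 smooth muscle and pericyte markers, Acta2 and Des rose, by 1.33 and 1.52, with each array left out, though neither without the 3 liver-rich arrays.

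The 15 largest falls, taken among called genes well above background on all 8 arrays whose groups did not overlap, held no glycolytic or lipogenic enzyme. D430019H16Rik fell most, from 2.60, 2.13, 2.47 and 2.50 to -3.41, -0.97, -1.92 and -1.41. Slc9b2, a sodium and proton exchanger, read -0.26, -0.22, 0.49 and 0.76 in controls and -3.09, -2.81, -3.09 and -2.56 in the KO-labelled arrays. Celsr2, an adhesion receptor of the cadherin family, read -1.03 to -0.26 and -3.77 to -3.495, though its other probes changed by -1.08 and -0.53. Nnat, the imprinted gene neuronatin, fell by 3.10. Ripk4, Smim5 and Fgf11 fell by 3.15, 2.93 and 2.61. Cyp2f2, a cytochrome P450, was highest in control replicate 2 and was called in 4 of the 8 fits with an array left out.

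Among the 15 largest rises, taken in the same way, beyond those already given, Ccn5, a matricellular protein, read -0.36, -2.12, -0.88 and -0.17 in controls and 2.68, 2.31, 2.50 and 2.37 in the KO-labelled arrays (change 3.35, adjusted p = 0.00226). Aspg, an asparaginase, rose by 3.16 and read 2.15 in control replicate 2 but -0.50 or less in the other controls. Rap1gap, which switches off the GTPase Rap1, rose by 3.13 but was called in only 2 of the 8 fits with an array left out. Some genes of these sets and Pgam1 moved in opposite directions in the 2 tissues and passed in both. Pgam1, Cidea, Cpt1b and Otop1 were higher in gWAT and lower in BAT, and Nnat and Slc9b2 the reverse. Cox6a2, Mthfd2, Gdf15 and Gpnmb were higher in the KO arrays of both tissues.

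Several of the falling genes shared 1 profile over all 16 arrays. After Ddx25, an RNA helicase of the testis, was seen among the falls, 29 of 31177 probes were found within 0.4 of its centred profile (root mean square of the log2 differences), itself included. They represent 16 named genes, among them Pou4f1, Tdgf1, Shc4, Cd300lf and Lsamp, and 13 probes without a gene name here. Ddx25 read 2.61, 1.99, 2.55 and 2.68 in controls and -0.47, 0.31, -0.66 and 0.20 in the KO-labelled arrays. Pou4f1, a factor of sensory neurons, read 3.70, 3.05, 3.63 and 3.47 against 0.64, 1.34, 0.44 and 1.34, so that even the order of the arrays was nearly the same. The changes of all 29 lay between -2.97 and -1.86. Control replicate 4, which shared its slide with the KO-labelled arrays, went with the other controls. Of these genes, Rabgap1 and Trp53rkb had another probe well above background on all 8 arrays, and those probes changed by -0.03 and 0.21. A dimmer Tdgf1 probe, well above background on 4 controls and 3 KO-labelled arrays, changed by -0.63. The remaining probes of Tdgf1, Cd300lf and Lsamp were at background on all 8 arrays, so the size of each of these falls rests on 1 probe. Because this set was chosen by its values, it was given no test.

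**Figure D5:**
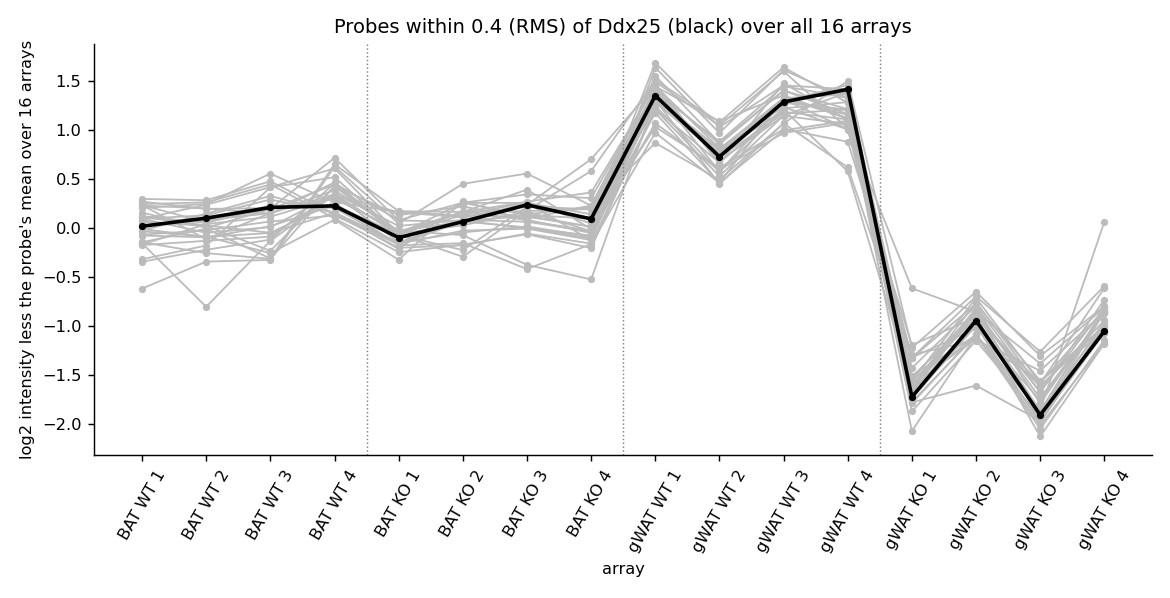
Log2 intensity of the 29 probes within 0.4 (root mean square) of Ddx25, each less its mean over the 16 arrays (vertical axis), across the BAT and gWAT arrays (horizontal axis); the black line is Ddx25. The 29 lie together, each spanning at most 1.51 in BAT, above 0 in the gWAT controls and, but for 1 point, below 0 in the gWAT KO-labelled arrays.

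Finally, 9 genes were well above background on all 4 KO-labelled arrays and on no control, and 30 on all 4 controls and on no KO-labelled array. Such a fold is a lower bound, set by the dimmest signal that counted as well above background on each array. Mlana, a melanosome protein, was at least 11.5-fold higher, and read -6.64 to -5.86 in controls. Phospho1, a phosphatase of bone and fat, was at least 7.77-fold higher, Adam2 at least 5.44-fold and 2310002L09Rik at least 4.84-fold. In the other direction, the proton pump subunit Atp6v1c2 was at least 4.67-fold lower, Gm34907 at least 4.02-fold and 1700113H08Rik at least 3.57-fold.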

How the data were processed

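The 8 gWAT arrays were 1-colour Agilent mouse arrays; the authors deposited 1 scanner file per array with spot intensity and marks, extracted with Agilent Feature Extraction 10.7.1.1 per the file headers, in which the processed signal is already background-subtracted but not scaled between arrays. The deposited series table holds normalized intensity, made by the authors with GeneSpring GX. The labels and the methods give different amounts of input RNA. Samples were grouped by their titles. Spots with no outlier mark were averaged per probe, and the processed signal was divided by the 75th percentile of non-control probes before log2 was taken. RefSeq named 32989 of 35886 probes with a RefSeq accession (91.9%), 22907 symbols in all, and 23616 of 56605 probes carried no name here. The brightest probe stood for a gene. The groups were compared with limma 3.58.1 in R 4.3.3, with Benjamini-Hochberg adjustment over 14147 genes at a threshold of 0.05, and differences between tissues by an interaction over all 16 arrays. Precision is limited by there being 4 arrays a group.

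The members and gene lists were chosen with earlier results of these data known, so lists were described by counts and medians beside those of all genes, without a set test. Named genes were Pgam1 and its family, the 15 largest rises and 15 largest falls among called genes well above background on all 8 arrays with groups that did not overlap, list members by role or size of change, and genes above background in 1 group only. The alternatives were quantile normalization, median centring, scaling by 7 spike-in probes, normexp (offset 50) on the median signal and local background, the deposited table, no filter on dim probes, all 8 arrays above background, the mean over probes, slide as a fixed or random block, a replicate block, all 16 arrays in 1 fit, the methods' t-test, each array left out, and, chosen after seeing the data, leaving out the 3 arrays richest in liver transcripts and the liver level as a covariate. The code was tested on simulated data. Results of a few genes are not reported here.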

Additional observations from a re-analysis of the deposited data

Results flagged for a closer look

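In 2 of the 68 groups of 4 arrays checked for a value far from the others, 1 array stood apart, where chance gives about 1 in 20 groups. Nnat read 0.61 in KO-labelled replicate 1 and 3.34, 3.64 and 3.72 in the others of that label. Smim5 read 0.58 in control replicate 1 and 0.34, 0.36 and 0.37 in the other controls.

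For 27 of 30 genes considered (Pgam1 and genes of the largest rises and falls), the change in gWAT differed from that in BAT. The test was an interaction in limma at an adjusted p of 0.05, which 48.3% of all genes passed. Slide, nearly confounded with group in both tissues, was not in that fit. All but Pgam1 were chosen by their gWAT change, which enters this difference, so the 27 cannot be weighed against that share. Each value that follows is the gWAT change less the BAT change on the log2 scale. Of the genes that moved in opposite directions and passed in both tissues, the difference was 2.69 for Pgam1, 6.05 for Otop1, 5.93 for Cpt1b, 4.64 for Cidea, -4.89 for Nnat and -4.78 for Slc9b2. Cidea, for example, changed by 3.41 in gWAT and by -1.23 in BAT.

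Some genes moved the same way and passed in both tissues. The difference was -3.07 for Cox6a2, which changed by 9.31 in BAT, -6.24 for Gdf15, which changed by 9.25 there, and -0.98 for Mthfd2, which changed by 4.47. It was 1.94 for Mreg, 2.79 for Slc2a5 and 2.38 for Mogat2. Among the falls it was 4.05 for Ripk4, which changed by -7.19 in BAT, -1.26 for Celsr2 and -0.85 for Fgf11.

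The remaining 12 did not pass in BAT. The difference was -3.68 for D430019H16Rik, -2.82 for Smim5, -2.82 for Cd300lf, -2.89 for Lsamp, -2.62 for Tdgf1, -2.54 for Ddx25 and -3.30 for Cyp2f2. Among the rises it was 4.20 for Acot11, 3.15 for Ccn5, 3.84 for Aspg, 2.46 for Rap1gap and 3.42 for Kcnk3. The 3 genes whose difference missed the threshold were Slc2a12 (-0.84, adjusted p = 0.0813), Ces1f (0.47, adjusted p = 0.521) and Gpnmb (-1.68, adjusted p = 0.110).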

How the results depend on the processing

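For the 15 largest rises and 15 largest falls, 690 values under 23 alternatives were compared. Of these, 645 kept direction and call, 45 kept direction and lost the call, and 0 reversed. These genes were chosen as called, bright and without overlap, so the counts do not speak for the other named genes. Where groups do not overlap, leaving out arrays cannot reverse a direction, so the 0 is no check of direction in those fits. The genes were also taken for their large changes, so kept directions under the other alternatives are no independent check either. Among 897 list values, each the median of a list less that of all genes, 853 stayed within the spread and 43 changed sign.

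The number of genes past the threshold was 1382 with median centring (400 lower), 5079 with spike-in scaling (4839 higher, 240 lower), 1136 without a filter on dim probes (614 and 522), 4041 with all 16 arrays in 1 fit (2437 higher), 1622 by the methods' t-test after adjustment (888 and 734) and 4678 before it. It was 184 with slide as a fixed block (66 and 118), which raised the median standard error from 0.18 to 0.28 and rests on 1 control array, and 2401 as a random block. Without the 3 arrays richest in liver transcripts it was 86 (30 and 56), with fewer samples. Leaving out 1 array gave 1079 to 3212 genes, 576 to 2084 of them higher and 495 to 1128 lower. The share of calls that were higher was 56%, but 95.3% with spike-in scaling, 71.1% with median centring and 35.9% with slide as a fixed block, and spike-in scaling and median centring moved the median of all genes to 0.49 and 0.17.

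The replicate block gave 1083 genes (555 and 528), and Pgam1 changed by 0.95 (adjusted p = 0.0515). Same-numbered arrays share only a number, since their deviations correlated at -0.159, 0.55, -0.139 and -0.00975, and not every array correlated best with its own number. Pgam1 changed by 0.75 with slide as a fixed block (second probe 0.82) and by 0.79 without the liver-rich arrays (0.84), no longer past the threshold in either.

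With slide as a fixed block, list values were 0.12 for mitochondrial biogenesis, 0.035 for cytosolic ribosomal proteins, 1.39 for thermogenic genes, 0.36 for creatine and calcium cycling, -0.42 for lipolysis, -0.17 for fatty acid uptake, 0.31 for cholesterol synthesis, 0.30 for the integrated stress response, -0.031 for heat shock proteins, 0.27 for p53 targets, -0.53 for glucocorticoid responsive genes, -0.23 for hypoxia genes, 0.51 for one-carbon enzymes, -0.025 for amino acid transporters and 0.59 for cytokines. Without the liver-rich arrays they were 0.72 for glycolysis, 0.079 for biogenesis, 0.29 for thermogenic genes, 0.36 for creatine cycling, -0.30 for insulin signalling, 0.25 for p53 targets and 0.20 for immediate early genes. Quantile normalization gave 0.0072 for cytosolic ribosomal proteins, 0.42 for creatine cycling and 0.14 for p53 targets. Creatine cycling was 0.11 with normexp and 0.040 with no filter, p53 targets 0.29 with the mean over probes, and, with all 8 arrays above background, the stress response 0.45 and hypoxia genes -0.0033. With 1 array left out, values ran from 0.48 to 0.92 for thermogenic genes, -0.48 to -0.33 for insulin signalling, -0.025 to 0.12 for the unfolded protein response, -0.013 to 0.28 for p53 targets, 0.059 to 0.29 for hypoxia genes, -0.20 to 0.044 for amino acid transporters and 0.093 to 0.43 for cytokines. The cause of these shifts was not tested, and dim probes limit genes near background.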
